A study of Mus musculus with 12 samples.

Results

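The genes of protein folding in the endoplasmic reticulum (ER) followed in injured mouse muscle were Hspa5, Hsp90b1, Pdia3, Pdia4, Pdia6, Calr, Canx, Dnajb9, Xbp1 and Hyou1. They were chosen by name, with earlier results of these data known, so their shares below are descriptive and not independent of the data. Each of the 10 was measured by 1 transcript cluster that carried no other gene's symbol, out of 19752 genes with such a cluster. All 10 lay at or above the median level of those genes.

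The study asked what amphiregulin (AREG), a ligand of the epidermal growth factor receptor, does to gene expression in damaged muscle with and without Foxp3+ regulatory T cells. Tibialis anterior (TA) muscle of 8-week-old C57BL/6 mice was injured on day 0 with cardiotoxin, a snake venom component that kills muscle fibres. Every mouse received diphtheria toxin on alternate days, which depletes Foxp3+ cells where Foxp3 drives its receptor (Foxp3-DTR+). AREG or phosphate-buffered saline (PBS) went into the muscle on day 0 and into the abdominal cavity on alternate days after that. The 4 groups of 3 arrays were AREG day 4 Foxp3-DTR-, PBS day 4 Foxp3-DTR-, AREG day 8 Foxp3-DTR+ and PBS day 8 Foxp3-DTR+. Day and genotype thus change together and cannot be told apart. RNA came from whole muscle, so fewer cells of a type and less RNA per cell cannot be told apart either. The labels do not say whether the arrays of a group came from separate animals, so p-values measure the spread between these arrays.

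The ER is where secreted and membrane proteins enter the secretory route, fold, form disulfide bonds and are checked before export. Unfolded protein there activates the sensors Ern1, Atf6 and Eif2ak3, and the unfolded protein response that follows raises transcription of chaperone genes through the factors Atf6 and spliced Xbp1. Regenerating muscle makes much protein by this route, including matrix and membrane proteins of new fibres.

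In the mammalian literature, chaperone genes of this response carry a promoter element named ERSE, spelled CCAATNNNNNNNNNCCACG, which the factors NF-Y and Atf6 or Xbp1 read together. RefSeq promoters (build GRCm38.p6), each 300 bases from 250 before to 50 after the start, were given for 9 of the 10 genes. ERSE was found on either strand in 5 of those 9, against 39 of 32851 promoters in the table, or 0.119%. ERSE is known from chaperone genes of this response and the 10 genes were chosen by name, so this contrast is descriptive. The stretches below are the matches in these 5 promoters. Capitals mark the match, and the Calr match and the second Hsp90b1 match read as the reverse complement.
Hspa5, chr2:34772017-34772051, plus strand: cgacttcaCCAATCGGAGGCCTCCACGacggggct
Calr, chr8:84847067-84847101, minus strand: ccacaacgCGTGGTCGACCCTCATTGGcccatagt
Hsp90b1, chr10:86705630-86705664, minus strand: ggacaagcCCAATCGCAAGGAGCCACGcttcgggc
Hsp90b1, chr10:86705525-86705559, minus strand: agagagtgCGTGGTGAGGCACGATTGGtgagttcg
Canx, chr11:50325792-50325826, minus strand: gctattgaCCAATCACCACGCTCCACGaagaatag
Pdia6, chr12:17266483-17266517, plus strand: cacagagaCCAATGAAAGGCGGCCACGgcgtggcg

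The matches begin 65 bases before the start in Hspa5, 98 in Pdia6, 145 in Canx, 162 in Calr, and 212 and 107 in Hsp90b1. The related ERSE-II, spelled ATTGG, any 1 base and CCACG, was in 0 of the 9 promoters and in 0.0365% of all promoters. The element UPRE, spelled TGACGTGG, was in 0 of the 9 and in 0.676% of all. The windows of Pdia3, Pdia4, Dnajb9 and Xbp1 held none of the 3 spellings. The whole windows of Hspa5, with its match in capitals, and of Dnajb9, with no match, are printed below. These genes were chosen because they encode a chaperone and its cochaperone and lay on opposite sides of 0 in the AREG comparisons that follow. Pdia3, Pdia4 and Xbp1, also without a match, changed by -0.81, -0.73 and -0.11 on the log2 scale at day 4. Like Hspa5, they were lower with AREG. Whether the element goes with the direction of change was not tested.
Hspa5, chr2:34771840-34772139, plus strand: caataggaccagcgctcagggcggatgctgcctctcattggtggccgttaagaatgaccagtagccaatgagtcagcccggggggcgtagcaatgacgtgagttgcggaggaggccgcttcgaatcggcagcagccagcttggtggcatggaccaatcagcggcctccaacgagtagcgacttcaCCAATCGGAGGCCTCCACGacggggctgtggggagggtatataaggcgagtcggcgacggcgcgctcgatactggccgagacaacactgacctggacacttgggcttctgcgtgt
Dnajb9, chr12:44210019-44210318, minus strand: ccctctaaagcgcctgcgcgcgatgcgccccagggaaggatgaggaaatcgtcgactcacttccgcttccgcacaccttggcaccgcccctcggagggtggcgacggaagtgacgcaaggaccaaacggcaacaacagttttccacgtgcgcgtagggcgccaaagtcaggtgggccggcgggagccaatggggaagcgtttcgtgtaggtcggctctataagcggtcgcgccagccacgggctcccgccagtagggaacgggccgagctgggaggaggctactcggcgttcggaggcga

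All values below are log2 of the deposited normalised intensity, and a change is AREG minus PBS on that scale unless said otherwise. A gene was called when its Benjamini-Hochberg adjusted p over all genes in limma, a linear model with moderated spread, was under 0.05. Foxp3 itself read 6.58 to 6.75 in AREG day 8 Foxp3-DTR+, 6.49 to 6.65 in PBS day 8 Foxp3-DTR+, 6.51 to 6.73 in AREG day 4 and 6.51 to 6.67 in PBS day 4 muscle, so the depletion was not visible at its cluster. The fibre genes Ckm and Acta1 lay above 13 in all 12 arrays, which fits the labelled tissue. The middle spread of all genes (interquartile range) was 2.07 to 2.61, narrowest in AREG day 4 replicate 1. With 3 arrays a group, the number of arrays limits the precision.

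At day 4 in Foxp3-DTR- muscle, 9 of the 10 genes were lower and 1, Dnajb9, was higher with AREG. None was called, against 2.9% of all genes (573 of 19752), while 9 of the 10 had an unadjusted p under 0.05, against 17.0% of all genes. The genes' median change was -0.38, beside 0.04 over all genes. In 8 of the 10 every AREG array lay below every PBS array, which held for 12% of all genes. In 1, Dnajb9, every AREG array lay above, which held for 10.2%.

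The disulfide isomerases had the largest of these changes. They are thioredoxin-like enzymes that form and reshuffle disulfide bonds in folding proteins. Pdia3, which works with calnexin and calreticulin on glycoproteins, read 9.27, 9.89 and 9.91 in AREG arrays, against 10.25, 10.68 and 10.58 in PBS arrays. The highest AREG array lay below the lowest PBS array. The change was -0.81 ± 0.23 (SE, n = 3 a group), 1.75-fold lower, with a 95% interval of -1.30 to -0.31 and a limma adjusted p of 0.0733. Pdia4 (also called ERp72) read 8.28, 8.83 and 9.07 in AREG arrays, against 9.24, 9.50 and 9.62 in PBS arrays. The groups did not overlap, and AREG replicate 1 was the lowest day 4 array for both genes. Its change was -0.73 ± 0.20, 1.65-fold lower, with an interval of -1.15 to -0.30 and a limma adjusted p of 0.0639. Pdia6, an isomerase that associates with the chaperone BiP, read 8.29, 8.43 and 8.47 in AREG arrays, against 8.85, 8.97 and 8.89 in PBS arrays. These were the tightest groups of the 3 isomerases, well apart from each other. The change was -0.51 ± 0.14, 1.42-fold lower, with an interval of -0.81 to -0.20 and a limma adjusted p of 0.0658.

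At day 4 the deviations of same-numbered AREG and PBS arrays from their group means correlated over all genes at 0.558, 0.201 and 0.511. AREG replicate 2 correlated more with PBS replicate 3, at 0.270. The numbers are those of the sample titles. With the replicate number as a block, these 3 isomerases were called lower in limma, with adjusted p of 0.0368 for Pdia3, 0.0231 for Pdia4 and 0.0317 for Pdia6, among 914 genes called in all.

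The ER members of the Hsp70 and Hsp90 chaperone families shifted less. Hspa5 encodes BiP, the ER Hsp70 that binds unfolded chains and holds the stress sensors inactive. It read 10.09, 10.19 and 10.44 in AREG arrays, against 10.49, 10.70 and 10.60 in PBS arrays. The ranges came within a narrow margin but did not overlap. The change was -0.36 ± 0.12, 1.28-fold lower, with an interval of -0.61 to -0.10 and a limma adjusted p of 0.120. Hsp90b1 encodes GRP94, the ER Hsp90, which folds integrins and Toll-like receptors. It read 9.76, 10.31 and 10.31 in AREG arrays, against 10.44, 10.67 and 10.66 in PBS arrays. AREG replicate 1 stood below the other two, and all 3 lay under the PBS arrays. The change was -0.47 ± 0.16, with an interval of -0.80 to -0.13 and a limma adjusted p of 0.123. Hyou1, the large ER Hsp70 relative that exchanges nucleotide on BiP, read 7.75, 8.03 and 8.05 in AREG arrays, against 8.16, 8.33 and 8.18 in PBS arrays. Its groups were separate by a small gap. The change was -0.28 ± 0.12, with an interval of -0.53 to -0.04 and a limma adjusted p of 0.214.

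Calreticulin (Calr) and calnexin (Canx) are the soluble and membrane-bound lectins that hold newly made glycoproteins for folding. Calr read 10.51, 10.48 and 10.71 in AREG arrays, against 10.97, 10.94 and 11.00 in PBS arrays. Its PBS arrays were nearly equal and above all AREG arrays. The change was -0.40 ± 0.12, with an interval of -0.66 to -0.14 and a limma adjusted p of 0.0916. Canx read 11.05, 11.24 and 11.31 in AREG arrays, against 11.48, 11.56 and 11.57 in PBS arrays. All AREG arrays were again the lower ones. The change was -0.33 ± 0.12, with an interval of -0.59 to -0.08 and a limma adjusted p of 0.149.

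Dnajb9 (ERdj4) and Xbp1 departed from the other 8. Dnajb9 encodes a J-domain cochaperone of BiP that also represses the sensor Ern1 and is itself a target of spliced Xbp1. It read 10.10, 9.99 and 9.72 in AREG arrays, against 9.60, 9.37 and 9.53 in PBS arrays. All AREG arrays were above all PBS arrays, opposite to the chaperones. The change was 0.44 ± 0.16, 1.35-fold higher, with an interval of 0.09 to 0.79 and a limma adjusted p of 0.171. Xbp1 encodes the transcription factor whose mRNA Ern1 splices, and one cluster value does not separate spliced from unspliced mRNA. It read 10.17, 10.20 and 10.45 in AREG arrays, against 10.33, 10.33 and 10.50 in PBS arrays. The groups overlapped, and the change was -0.11 ± 0.14, with an interval of -0.41 to 0.19 and a limma adjusted p of 0.796.

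**Figure D1:**
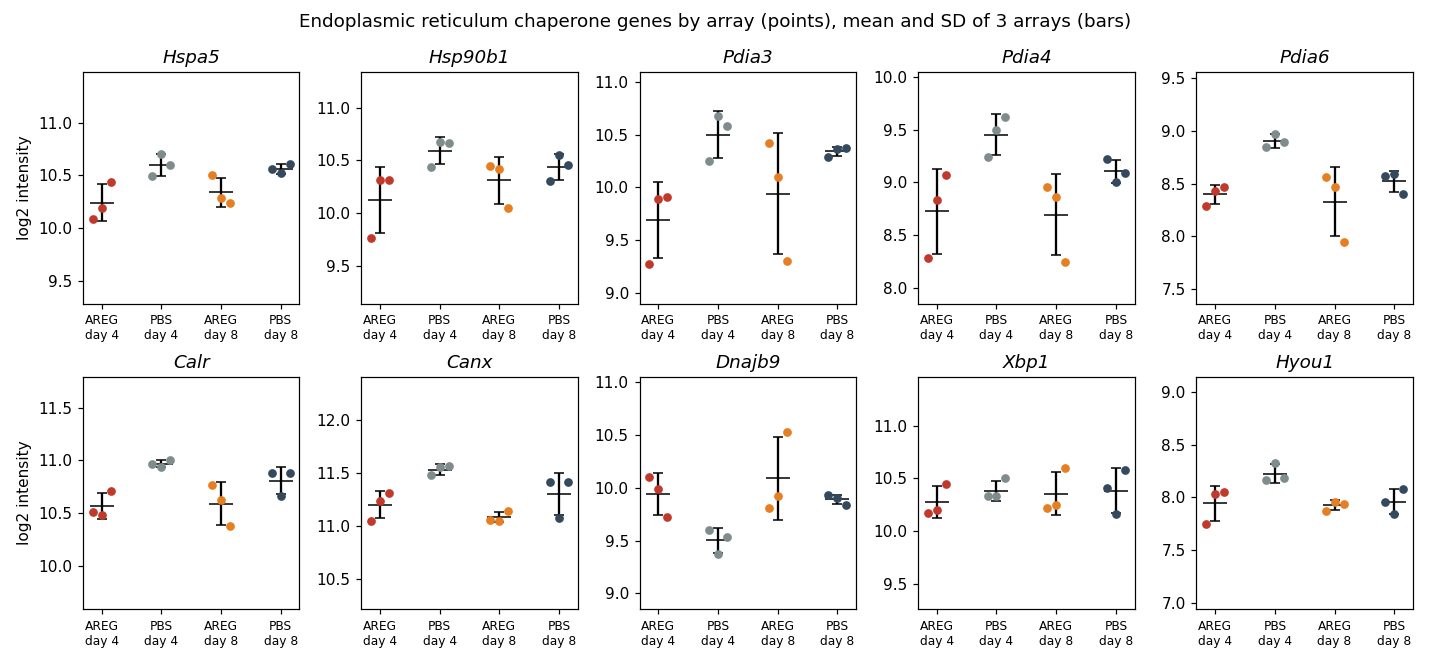
log2 intensity of each of the 10 ER genes in each array, 1 panel a gene, with AREG left of PBS at day 4 (Foxp3-DTR-) and then at day 8 (Foxp3-DTR+); points are arrays, and bars give the mean and SD of the 3 arrays. At day 4 the AREG points of 8 genes lie wholly below the PBS points, those of Dnajb9 wholly above, and those of Xbp1 overlap.

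At day 8 in Foxp3-DTR+ muscle none of the 10 genes was called in limma, against 0.00506% of all genes (1 of 19752). None had an unadjusted p under 0.05, against 7.62% of all genes. Again 9 were lower and Dnajb9 was higher, with a median change of -0.20 beside 0.01 over all genes. The groups were separate with AREG below PBS in 2 of the 10, against 7.14% of all genes, and with AREG above in 0, against 7.06%. Those 2 were Pdia4 and Hspa5. Pdia4 read 8.96, 8.86 and 8.25 in AREG arrays, against 9.22, 9.0 and 9.09 in PBS arrays. Its change was -0.41 ± 0.20, with an interval of -0.84 to 0.02. Hspa5 read 10.50, 10.29 and 10.24 in AREG arrays, against 10.56, 10.52 and 10.61 in PBS arrays. Only 1 AREG array came near the PBS range, and the change was -0.22 ± 0.12, with an interval of -0.47 to 0.03.

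One array stood apart in several genes at day 8. Pdia3 read 10.42, 10.10 and 9.30 in AREG arrays, against 10.29, 10.36 and 10.37 in PBS arrays. Pdia6 read 8.56, 8.47 and 7.95 in AREG arrays, against 8.57, 8.59 and 8.40 in PBS arrays. Dnajb9 read 9.81, 9.92 and 10.53 in AREG arrays, against 9.93, 9.90 and 9.84 in PBS arrays. In each gene AREG replicate 3 lay apart from the other two, low for both isomerases and high for Dnajb9, and the AREG and PBS ranges overlapped. In that array the 14 matrix genes described below averaged 8.93, against 9.92 and 10.16 in the other AREG arrays, and the 8 macrophage markers averaged 8.35, against 9.19 and 9.56. Their part in the spread was not tested. Without AREG day 8 replicate 3 the median change of the 10 genes at day 8 was -0.10, and that of Dnajb9 was -0.03.

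The remaining genes at day 8 were closer between treatments. Calr read 10.77, 10.62 and 10.38 in AREG arrays, against 10.88, 10.66 and 10.88 in PBS arrays. Canx read 11.06, 11.05 and 11.14 in AREG arrays, against 11.42, 11.07 and 11.42 in PBS arrays. For both lectins most PBS arrays were higher, but 1 PBS array fell within the AREG range, and each changed by -0.22 ± 0.12. Hsp90b1 read 10.45, 10.42 and 10.05 in AREG arrays, against 10.30, 10.55 and 10.46 in PBS arrays. Hyou1 read 7.87, 7.96 and 7.94 in AREG arrays, against 7.96, 7.84 and 8.08 in PBS arrays. Xbp1 read 10.22, 10.25 and 10.60 in AREG arrays, against 10.41, 10.16 and 10.58 in PBS arrays. These 3 overlapped broadly, with changes of -0.13 ± 0.16, -0.03 ± 0.12 and -0.03 ± 0.14, in that order. The limma adjusted p of the 10 genes ran from 0.658 to 0.975.

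**Figure D2:**
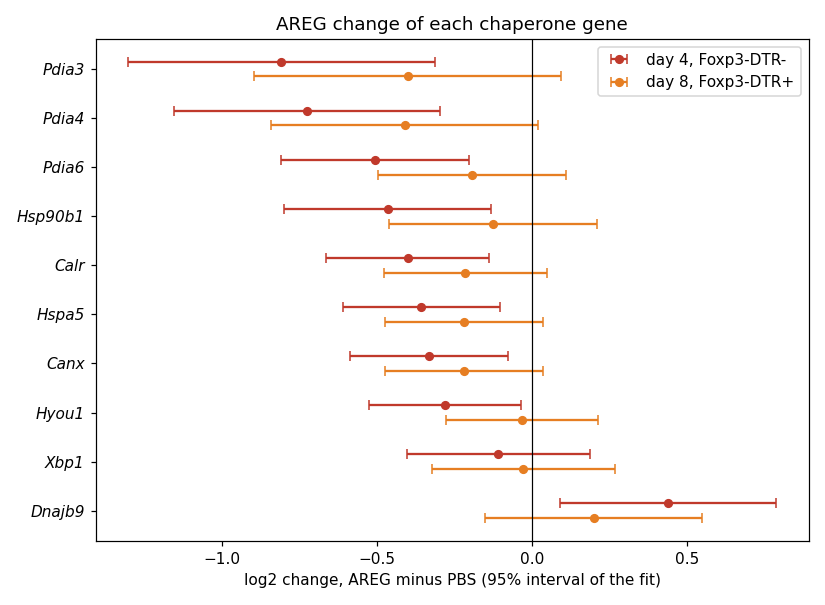
Change of each gene on the log2 scale, AREG minus PBS, at day 4 (Foxp3-DTR-) and day 8 (Foxp3-DTR+); points are estimates and bars 95% intervals of the limma fit, unadjusted. At day 4 the intervals of 9 genes exclude 0, Xbp1 being the exception, and at day 8 all 10 include it.

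The mean of both AREG effects used 6 arrays a treatment. Pdia4 fell by 0.57 on the log2 scale (SE 0.14, 1.48-fold lower) and was called, with a limma adjusted p of 0.0422. It was the only one of the 10 called, against 3.41% of all genes (674). The call held in 3 of the 12 analyses that leave out 1 array, those without AREG day 4 replicate 3, PBS day 4 replicate 1 or AREG day 8 replicate 1. Next were Pdia3 at -0.60 ± 0.16 with an adjusted p of 0.0560, Calr at -0.31 ± 0.09 with 0.0645, Pdia6 at -0.35 ± 0.10 with 0.0681 and Hspa5 at -0.29 ± 0.08 with 0.0716, all from limma. Canx was at -0.28 ± 0.08 and Hsp90b1 at -0.30 ± 0.11, while Dnajb9 was at 0.32 ± 0.12, and none of these was called. With the replicate block, Pdia3, Pdia4 and Pdia6 were called in limma, with adjusted p of 0.0284, 0.0166 and 0.0325, among 1104 genes in all. That block also pairs same-numbered day 8 arrays, whose deviations correlated at only -0.198, 0.123 and -0.003.

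The AREG effect itself was compared between the settings. For none of the 10 genes did limma call a difference between the day 8 Foxp3-DTR+ and the day 4 Foxp3-DTR- effect, and it called 0% of all genes, while 1160 genes and 0 of the 10 had an unadjusted p under 0.05. The difference, day 8 minus day 4, was 0.41 for Pdia3 with a 95% interval of -0.29 to 1.11. For Pdia6 it was 0.31, with an interval of -0.11 to 0.74, and for Dnajb9 -0.24, with an interval of -0.73 to 0.25. These intervals hold both 0 and differences as large as the day 4 changes of Pdia3 and Pdia6, so the data do not show whether the effects were alike.

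In PBS muscle, day 8 Foxp3-DTR+ was set against day 4 Foxp3-DTR-. None of the 10 genes was called, against 2.34% of all genes (463), and 3 had an unadjusted p under 0.05, against 13.1% of all genes. Pdia6 was at -0.38 ± 0.14 on the log2 scale, Hyou1 at -0.27 ± 0.12 and Dnajb9 at 0.39 ± 0.16, day 8 minus day 4. The limma adjusted p of these 3 were 0.237, 0.336 and 0.314. Every day 8 array lay below every day 4 array for Pdia4, Pdia6, Calr, Canx and Hyou1, 5 of the 10, against 14.2% of all genes. It lay above for Dnajb9 alone, against 9.17%. This comparison and the AREG comparison at day 4 share the 3 PBS day 4 arrays, so their values are not separate evidence. In AREG muscle, day 8 against day 4, none of the 10 was called, against 0.719% of all genes (142). None had an unadjusted p under 0.05, against 10.3% of all genes. The ranges of all 10 overlapped, and the share of all genes that did so was not counted. Changes there ran from -0.12 for Canx to 0.25 for Pdia3.

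Around these genes, 142 measured genes of 10 neighbouring groups, also chosen with earlier results known, were examined at day 4. Limma called 14 of them lower and 1 higher with AREG. That is 10.6% of the 142, beside 2.9% of all genes. These shares are not matched for level, since 129 of the 142 lay at or above the median level of all genes. With only genes at that level tested, limma called 16 of the 129 (12.4%), among 753 called of 9876 genes. The 15 calls became 20 with the replicate block, 24 with only the compared arrays and 56 with array weights. Limma there called 914, 938 and 5305 genes in all. The count was 0 without AREG day 4 replicate 1, AREG day 4 replicate 3 or PBS day 4 replicate 2. In these fits limma called 15, 9 and 9 genes in all. It was 9 without AREG replicate 2 or PBS replicate 3 of day 4, among 308 and 418 genes in all. It was 8 without PBS day 4 replicate 1, among 228, and 31 without AREG day 8 replicate 3, among 1336. Among 18 other disulfide isomerases and oxidases, 14 were lower and 4 higher with AREG, with a median change of -0.20. Limma called 5 lower and none higher. Pdia5 fell by 0.57 on the log2 scale (SE 0.11, limma adjusted p 0.0222). Txndc5 (ERp46), another isomerase, fell by 0.68 (SE 0.15, limma adjusted p 0.0331). Qsox1, a sulfhydryl oxidase that makes disulfide bonds in the Golgi and outside the cell, fell by 0.48 (SE 0.11, limma adjusted p 0.0331). The other two, named after their values were seen, were P4hb, the isomerase that is also the beta subunit of collagen prolyl 4-hydroxylase, at -0.57 ± 0.13 and Erp29 at -0.43 ± 0.10. P4hb, Pdia5 and Txndc5 were also called lower in PBS muscle at day 8 Foxp3-DTR+ against day 4 Foxp3-DTR-. That comparison shares the PBS day 4 arrays. P4hb kept this call in 3 of the 12 analyses without 1 array and in 6 of 9 other settings. The block there was the replicate number over all 4 groups, not AREG and PBS pairs within a day. Under it P4hb had a limma adjusted p of 0.0530.

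BiP cochaperones (0 of 11 called, median -0.15), the glycan-dependent folding cycle (0 of 9, median -0.13), and ER export with KDEL receptors (0 of 14, median -0.21) had no call at day 4. In ER-associated degradation 14 of 17 were lower and 1 was called, Edem1, a lectin-like protein that marks misfolded glycoproteins for disposal. Edem1 fell by 0.85 on the log2 scale (SE 0.16, limma adjusted p 0.0218). In translocation and glycosylation machinery 16 of 20 were lower and 1 was called, Sec61a1, the channel subunit through which chains enter the ER. Sec61a1 fell by 0.66 (SE 0.14, limma adjusted p 0.0297). Of 12 sensors and transcription factors of the unfolded protein response none was called, with the sensors Ern1 at -0.20 ± 0.14 and Atf6 at -0.15 ± 0.13, named after their values were seen. Among 13 targets of Atf4, the factor downstream of Eif2ak3, 7 were lower and 6 higher. Limma called 2 lower and 1 higher. Chac1, an enzyme that degrades glutathione, rose by 1.72 ± 0.32 (limma adjusted p 0.0198). The amino acid synthesis genes Asns and Psat1 fell by 0.73 and 0.68 (SE 0.13 and 0.12, limma adjusted p 0.0198 and 0.0196). Of 14 cytosolic and mitochondrial chaperones 10 were lower and 1 was called, Hsp90aa1, the inducible cytosolic Hsp90. Hsp90aa1 fell by 0.62 (SE 0.12, limma adjusted p 0.0236).

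**Figure D3:**
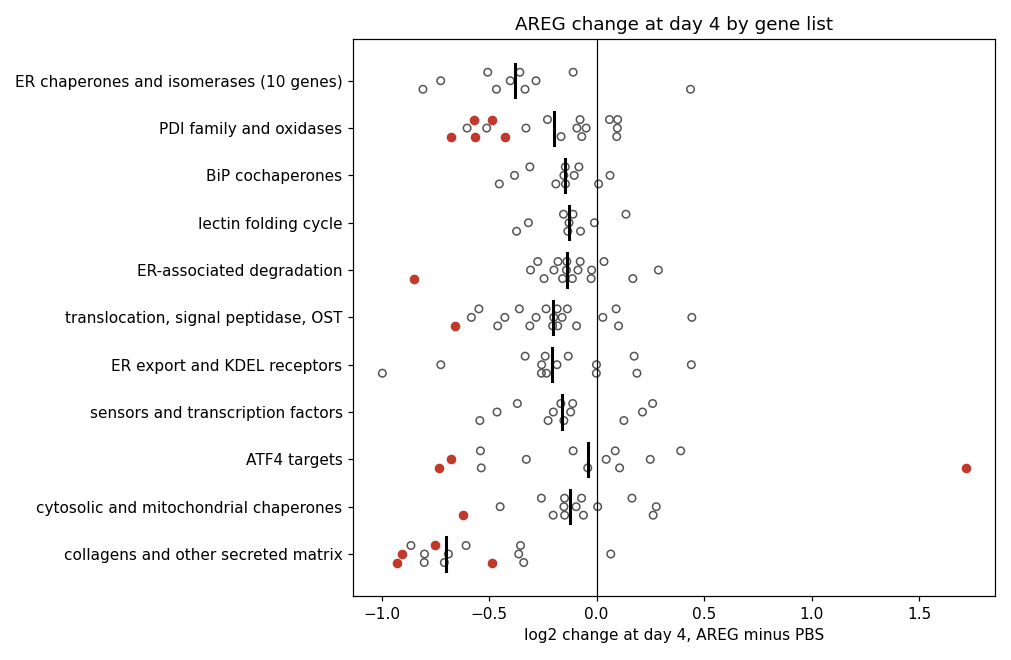
Change at day 4 on the log2 scale, AREG minus PBS, of every measured gene in the 10 ER genes and 10 neighbouring groups; filled red points have a limma adjusted p under 0.05, open points do not, and the black bar is the group's median. Most medians lie between -0.21 and -0.04, the 10 ER genes' at -0.38 and the matrix group's at -0.70.

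Collagens are cargo of the ER. Of 14 collagen, other matrix and collagen-folding genes, termed matrix genes here, 13 were lower with AREG at day 4 and 4 were called. These were Col5a2, lower by 0.93, Ppib by 0.91, Col5a1 by 0.49 and Serpinh1 (named after its value was seen) by 0.75. Ppib and Serpinh1, the collagen chaperone Hsp47, encode ER folding factors rather than cargo. The group's median was -0.70. The summed intensity of the 14 genes was 24600 to 28270 in AREG arrays and 39220 to 47060 in PBS arrays. Markers of other cell types moved as well. All 8 macrophage markers were below PBS in every AREG array and 6 were called lower, with summed intensity 4628 to 6396 in AREG arrays and 10210 to 13020 in PBS arrays. All 8 markers of regenerating fibres did so and 5 were called lower, with sums of 13340 to 17330 in AREG arrays and 20460 to 27910 in PBS arrays. Of 6 fibroblast and fibro-adipogenic progenitor markers 4 were lower, 2 were higher and 0 were called. Their sums were 11430 to 13570 in AREG arrays and 14520 to 16210 in PBS arrays, and Col1a1 is in both this list and the matrix genes. Of 8 mature fibre markers 0 were called, with sums of 91410 to 98440 in AREG arrays and 85390 to 93190 in PBS arrays. Plasma cells are rich in ER, and of their 7 markers 0 were called, with sums of 642.6 to 735.7 in AREG arrays and 724.0 to 758.9 in PBS arrays. Only 1 of these 7 lay at or above the median level of all genes. All 4 adipocyte markers were higher with AREG and 2 were called higher, with sums of 737.2 to 1097 in AREG arrays and 480.7 to 647.3 in PBS arrays. All 4 endothelial markers were higher and 0 were called, with sums of 2633 to 3754 in AREG arrays and 2140 to 2822 in PBS arrays. None of 5 T cell, 3 B cell or 4 regulatory T cell markers was called. Of these, 1, 0 and 1, in that order, lay at or above the median level. For these lists and the plasma cell list, low levels limit what the absence of calls can show. The part of these cell types in the ER genes' values was not tested.

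At day 8 limma called none of the 142 neighbouring genes, and 16 with array weights, among 1192 genes in all. Sums of the matrix genes were 9910 to 25760 in AREG arrays and 26220 to 28120 in PBS arrays. In the mean of both AREG effects 33 of the 142 were called with the replicate block, which also pairs day 8 arrays, among 1104 genes in all. Without the block 18 were called lower and 1 higher, among 674 genes in all. Among these were the BiP cochaperone Creld2, which fell by 0.39 (SE 0.09, limma adjusted p 0.0362), and Kdelr3, a receptor that returns escaped ER proteins, which fell by 0.90 (SE 0.22, limma adjusted p 0.0388). The Kdelr3 call held in 3 and the Creld2 call in 4 of the 12 analyses without 1 array, and Kdelr3 was called in 4 of 8 other settings. The translocon-associated Ssr1 and Ssr2 were also called lower. The 19 calls became 4 without AREG day 4 replicate 1, 10 without AREG day 4 replicate 3 and 1 without PBS day 4 replicate 2. Limma there called 61, 203 and 34 genes in all. The count was 3 without PBS day 8 replicate 1 or 3, among 80 and 65 genes in all. It was 36 without AREG day 8 replicate 1, among 1488.

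**Figure D4:**
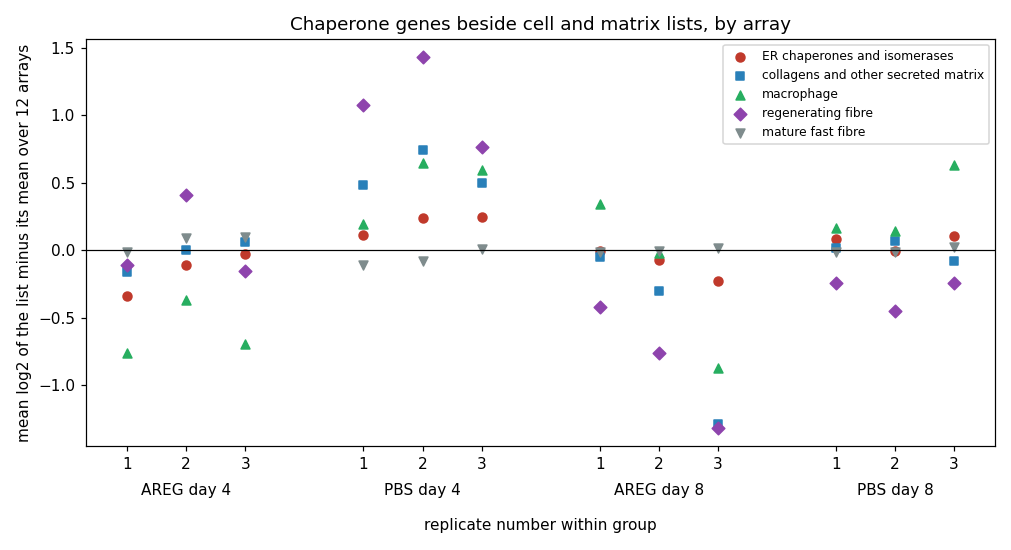
Mean log2 intensity of the 10 ER genes and of 4 other groups in each array, minus the group's own mean over the 12 arrays. The ER genes are lowest in AREG day 4 replicate 1 and AREG day 8 replicate 3, and highest in PBS day 4 replicates 2 and 3; the matrix, macrophage and regenerating fibre genes are also high in PBS day 4 and low in AREG day 8 replicate 3.

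Deviations of the 10 genes from their group means are given for the arrays with the narrowest spread of all genes. In AREG day 4 replicate 1, the array with the narrowest spread of all genes, 9 of the 10 lay below their group mean. Pdia4 was 0.44 and Pdia3 0.42 under it, and Dnajb9 was above its mean by 0.16. PBS day 4 replicate 1, next narrowest at 2.27, also had 9 of the 10 below their group mean, with Dnajb9 above by 0.1. The share of all genes below their group mean in these arrays was not counted, so these counts do not show variation particular to the 10 genes. All 10 lay at or above the median level, and the part of that level in these counts was not tested. Across the 12 arrays, the genes outside the 10 whose centred log2 values lay closest to the 10 genes' mean profile were Caprin1, Gdi2, Cdc42, Adam10, Septin11, Hnrnpk, Gatd1, Cltc, Abhd12 and Orc6. Their root mean square differences from it were 0.054 to 0.069 on the log2 scale. Those of the 10 genes themselves were 0.067 for Hspa5, the closest, to 0.433 for Dnajb9, the farthest. Genes outside the 10 with an ERSE match in their promoter numbered 32, of which 16 were measured, among them Creld2, Dnajc3, Derl3 and Syvn1 of the groups above (named after their values were seen). At day 4, 10 of these 16 were lower with AREG and 0 were called, with a median change of -0.05, and at day 8, 11 of 16 were lower with a median of -0.06.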

How the data were processed

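The 12 Affymetrix Mouse Gene 1.0 ST arrays were summarised by the authors with Affymetrix Power Tools and RMA, per the submitters' processing notes. For tool versions and the genome build, the entry is "not given in the sources used here". What the authors deposited is intensity on a linear scale (4.65 to 21512), with array medians of 134 to 143, and were taken to log2. Of 24922 clusters, 21425 carried 1 symbol. The cluster with the highest mean stood for each of 19752 genes. limma 3.58.1 (R 4.3.3) fitted 4 group means over all 12 arrays (8 residual and 7.1 prior degrees of freedom), two-sided, with 1 estimate of the spread, and was tested on simulated data. No arrays were identical.

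Same-numbered AREG and PBS arrays shared deviations at day 4 (correlations 0.558, 0.201 and 0.511) but not at day 8 (-0.198, 0.123 and -0.003). At day 4 AREG replicate 2 correlated more with PBS replicate 3 (0.270) than with PBS replicate 2. The block was therefore kept out of the first fit and reported beside it. For the AREG effects, their mean and their difference it paired AREG and PBS arrays within each day. For day 8 against day 4 it was the replicate number over all 4 groups. The 10 genes and all lists were chosen with earlier results of these data known. Named besides the 10 were up to 3 called genes a list with the smallest p, and the 10 genes of most similar profile; genes named outside this rule are marked in the text. Alternatives were the block, trended and robust moderation, array weights, a median-level filter, repeated quantile normalisation, median centring, a pseudocount of 32, averaged clusters, only the arrays compared, and each array left out. Promoter motifs were searched on both strands.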

Additional observations from a re-analysis of the deposited data

How the results depend on the processing

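Of the 10 genes, the number called at day 4 was 0, but 3 with the replicate block, 9 with array weights, and 2 each with the median-level filter, with repeated quantile normalisation and with only the compared arrays. It was 0 to 5 with 1 array left out. It was 3 (Pdia3, Pdia4 and Pdia6) without AREG day 8 replicate 1, and 5 (those and Calr and Dnajb9) without AREG day 8 replicate 3. Limma there called 927 and 1336 genes in all. The median change was -0.27 with weights and -0.46 to -0.28 with 1 array left out. All genes called numbered 914 with the replicate block, 5305 with weights, 753 of the 9876 tested with the filter and 832 with requantiling. They numbered 358 with a pseudocount of 32, 938 with only the compared arrays and 9 to 1336 with 1 array left out. At day 8, 0 of the 10 were called in every alternative run. All genes called were 0 with the block, trended moderation, the filter, requantiling, centring, the pseudocount, averaged clusters and only the compared arrays, 1192 with weights, and 0 to 1 with 1 array left out, with a median change of -0.25 to -0.10. In the mean effect, 3 of the 10 were called with the block or requantiling, 6 with weights, 5 with the filter, 0 with centring or the pseudocount, and 0 to 5 with 1 array left out; without AREG day 8 replicate 1 these were 5, and without PBS day 8 replicate 2 Canx was called in place of Pdia4. All genes called there were 1104 with the block, 4902 with weights, 836 of the 9876 tested with the filter and 674 with requantiling. They were 478 each with centring and the pseudocount. With 1 array left out they were 34 to 1488, with a median change of -0.34 to -0.25.

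For the difference of effects, weights called 1 of the 10 (Pdia6) and 2232 genes. Leaving out 1 array called 0, with a median of 0.12 to 0.28. In PBS muscle, day 8 against day 4, weights called 2 of the 10 (Dnajb9 and Pdia6) and 1649 genes. Only the compared arrays called 759 genes, and leaving out 1 array 0 of the 10 and 209 to 719 genes, with a median of -0.24 to -0.14. In AREG muscle, weights called 1 (Canx) and 6676 genes with a median of -0.065, the pseudocount 91 and the compared arrays 86. Leaving out 1 array called 0 of the 10 and 79 to 458 genes, with a median of -0.00 to 0.12. The array weights ran from 0.167 to 7.43, and the cause of these differences was not tested.

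Only uncalled changes turned sign. With weights these were Xbp1 at day 4 (0.038), Hspa5, Canx and Xbp1 in the difference (-0.014, -0.024 and -0.188), and Hspa5, Calr and Xbp1 in AREG muscle (-0.089, -0.051 and -0.14). With requantiling they were Hyou1 at day 8 (0.045), Xbp1 in PBS muscle (-0.049) and Hyou1 in AREG muscle (0.005). With centring they were Xbp1 and Hyou1 at day 8 (0.021 and 0.016), and Pdia4 and Hyou1 in AREG muscle (0.014 and 0.032). With 1 array left out, day 8 changes ran from -0.15 to 0.07 for Xbp1, -0.20 to 0.00 for Hsp90b1, -0.026 to 0.33 for Dnajb9 and -0.094 to 0.028 for Hyou1. Differences ran from -0.039 to 0.18 for Xbp1 and from -0.003 to 0.17 for Canx. PBS changes ran from -0.10 to 0.11 for Xbp1 and from -0.087 to 0.017 for Hspa5. AREG changes ran from -0.069 to 0.13 for Calr, -0.26 to 0.19 for Pdia4, -0.11 to 0.035 for Hyou1, -0.18 to 0.12 for Pdia6, -0.075 to 0.29 for Dnajb9 and -0.036 to 0.17 for Xbp1. Of the other values for single genes and lists, 1980 kept direction and side of the threshold, 190 no longer passed it, 48 newly passed it, and 132 counts of calls in a list moved by over 1.5 times or to or from 0.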

Other observations

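Most measured sensors and transcription factors of the unfolded protein response were lower with AREG at day 4 (9 of 12, median -0.16), as were most genes of ER-associated degradation (14 of 17, median -0.14). At day 8, 7 of the 12 and 9 of the 17 were higher with AREG, so a higher gene was no exception there. Among the 3 higher in each at day 4, Herpud1 and Ddit3 are named here after their values were seen. Herpud1, an adaptor of ER-associated degradation, was higher by 0.29 ± 0.12 on the log2 scale with AREG at day 4 and by 0.16 ± 0.12 at day 8. Ddit3, the stress-induced transcription factor CHOP, was higher by 0.26 ± 0.10 at day 4 and by 0.17 ± 0.10 at day 8. For both genes, every AREG array lay above every PBS array of the same setting, which held for 10.2% of all genes at day 4 and 7.06% at day 8. Neither was called, with limma adjusted p of 0.232 and 0.788 for Herpud1 and 0.187 and 0.736 for Ddit3 at day 4 and day 8. Eif2ak3, the sensor upstream of Atf4 and Ddit3, was at -0.37 ± 0.16 at day 4 with a limma adjusted p of 0.233.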
